A study of Mus musculus with 2 samples.

Results

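The Mir17 polycistron of the mouse is a run of 6 microRNA (miRNA) genes, Mir17, Mir18, Mir19a, Mir20a, Mir19b-1 and Mir92-1, that lie on the plus strand of chromosome 14 inside a single noncoding transcript. The members were taken by gene symbol, and all 6 were found among the 1973 miRNA genes of the deposited count tables. The tables come from 2 small RNA libraries of embryonic midbrain of the mouse strain B6NCrl, taken at 15.5 days of development. The libraries hold RNA shorter than 30 bases and are labelled as biological replicates of healthy tissue. Replicate 1 was a pool of 78 embryos and replicate 2 a pool of 62 embryos, with both sexes in each pool. No other tissue, age, treatment or genotype was measured, so the comparisons possible are between miRNAs of the same library and between the pools.

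A polycistron is a transcript that carries several gene products. The nuclear enzyme Drosha cuts each hairpin out of the primary transcript, and Dicer then trims the hairpin to mature miRNAs, of which usually 1 arm is kept. A mature miRNA finds its targets mainly through its seed, bases 2 to 8 from the 5′ end, so miRNAs with the same seed are grouped together. The Mir17 polycistron is a target of the transcription factor Myc and is known for promoting proliferation and survival, among other routes by repressing the pro-apoptotic gene Bcl2l11. In the embryonic mouse brain it is known for keeping neural progenitors dividing.

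In mm10 coordinates the run spans 836 bases of chromosome 14, from 115043671 to 115044506. It lies whole in exon 2 of the annotated transcript of Mir17hg, the host gene at 115042879 to 115046727, which has 2 exons and 1 transcript in GENCODE M21. From 5′ to 3′ the order is Mir17 (115043671 to 115043754), Mir18 (115043851 to 115043946), Mir19a (115044000 to 115044081), Mir20a (115044157 to 115044263), Mir19b-1 (115044305 to 115044391) and Mir92-1 (115044427 to 115044506). The annotated hairpins are 80 to 107 bases long and are separated by 35 to 96 bases. No intron or annotated splice site therefore separates the members.

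The main mature arms fell into 4 seed groups. They are shown because the counts below are ordered by them, with the seed in capitals (RefSeq, GRCm38.p6, plus strand of chromosome 14).
miR-17-5p: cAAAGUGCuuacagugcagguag
miR-20a-5p: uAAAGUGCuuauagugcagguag
miR-18a-5p: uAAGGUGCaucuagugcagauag
miR-19a-3p: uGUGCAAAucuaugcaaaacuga
miR-19b-3p: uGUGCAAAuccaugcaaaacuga
miR-92a-3p: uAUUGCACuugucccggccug

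The miR-17 seed is shared by Mir17 and Mir20a, whose arms differ at 2 of 23 positions, C1U and C12U, counted from the 5′ end with the base of miR-17-5p first. The arm of Mir18 has a seed of its own, which differs from that of miR-20a-5p by A4G. The miR-19 seed is shared by Mir19a and Mir19b-1, whose arms differ by U11C alone. Mir92-1 carries the miR-92 seed. The gene tables give a single count per hairpin, so reads of the main arm and of its partner arm were not told apart.

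Of the mature arms listed, miR-19b-3p and miR-92a-3p also occur whole in another annotated hairpin. These are Mir19b-2 and Mir92-2 on chromosome X, members of a related cluster. The hairpins are shown with the longest run common to each pair in capitals, because a read inside that run cannot be assigned to either gene.
Mir19b-1: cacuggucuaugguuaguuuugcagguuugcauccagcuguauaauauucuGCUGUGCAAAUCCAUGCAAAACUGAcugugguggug
Mir19b-2: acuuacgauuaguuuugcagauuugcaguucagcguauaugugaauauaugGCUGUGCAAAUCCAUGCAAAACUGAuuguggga
Mir92-1: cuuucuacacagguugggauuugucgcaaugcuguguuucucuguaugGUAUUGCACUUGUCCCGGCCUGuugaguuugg
Mir92-2: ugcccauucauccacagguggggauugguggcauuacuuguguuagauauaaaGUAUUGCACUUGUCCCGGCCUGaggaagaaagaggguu

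The common run was 25 bases in the Mir19b pair and 22 bases in the Mir92 pair, longer than the mature arms themselves. For the other members the longest run shared with any other annotated hairpin was 13 bases in Mir17 and Mir19a and 17 bases in Mir18 and Mir20a. Levels of Mir19b-1 and Mir92-1 are therefore uncertain in these tables, which give reads that map to more than 1 place to no gene. Such reads numbered 2847913 in replicate 1 and 4694526 in replicate 2, or 0.830 and 0.816 times the sense counts of all miRNA genes. How many of them came from miR-19b or miR-92a was not tested.

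The tables list 7557669 reads for replicate 1 and 13115314 for replicate 2, of which 3429704 and 5752476 lay on the sense strand of miRNA genes. Levels are given as CPM, counts scaled to the same library total of those sense counts, and intervals are exact 95% intervals that cover counting error only. Of 8 brain miRNAs found in the tables, 7 had a mean of at least 1 CPM, and the list summed to 13414 and 14512 CPM in replicates 1 and 2. Mir137 alone had 10800.1 and 11585 CPM of this in replicates 1 and 2, while Mir124a-1, Mir124a-2, Mir124a-3 and Mir9-2 had between 0.522 and 4.08 CPM. Between these lay Mir9-3 with 455 and 512 CPM, Mir128-1 with 1403 and 1491 CPM and Mir128-2 with 746 and 917 CPM. Markers of other cells were also present, with 24909 and 21568 CPM for endothelial Mir126a, 197 and 208 CPM for 3 red cell miRNAs and 334 and 319 CPM for 3 miRNAs of white cells and microglia. Muscle miRNAs summed to 11.7 and 16.0 CPM, with 3 of 4 at 0 counts, and liver Mir122 had 43.2 and 76.1 CPM. The muscle genes at 0 were Mir1a-1, Mir133a-1 and Mir133a-2. Like Mir124a and Mir9, they are listed as numbered copies, and reads that map to more than 1 place were given to no gene. Low or 0 counts of such copies are therefore uncertain as levels of the mature miRNA, and the part of the reads set aside was not tested. The part of these cells in the counts of the polycistron was not tested, and in such bulk tissue fewer cells of a type and less RNA per cell cannot be told apart.

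The polycistron was among the more heavily counted miRNA loci of the midbrain. Its 6 genes together had 133460 sense counts in replicate 1 and 235419 in replicate 2. That was 3.89% (95% exact interval 3.87 to 3.91) and 4.09% (4.08 to 4.11) of all sense counts, or 3.99 ± 0.142% (SD, n = 2). All members had counts in both libraries. None had a count on the opposite strand in either library, where 3 counts would be 0.875 CPM in replicate 1 and 0.522 CPM in replicate 2.

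Assigned counts along the transcript did not follow position. Mir17, the first hairpin, was highest, and Mir20a, the fourth, came next. The lowest were Mir19a, the third hairpin, and Mir19b-1, the fifth, which stand on either side of Mir20a. The last hairpin, Mir92-1, stood between these extremes. The places of Mir19b-1 and Mir92-1 are uncertain, because reads of their main arms that map to more than 1 place are not counted.

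**Figure D1:**
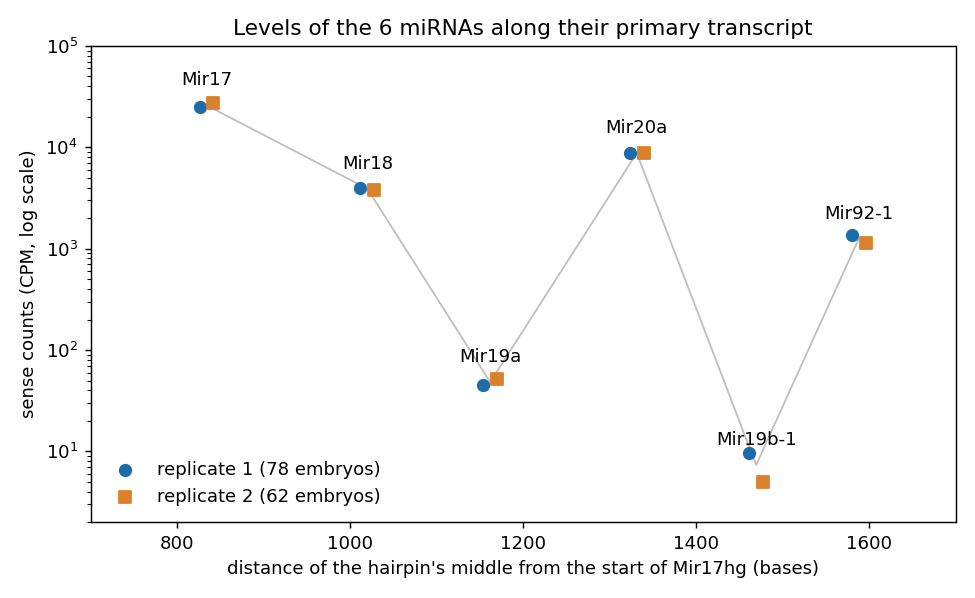
Sense counts of the 6 members (CPM, log scale) against the distance of each hairpin's middle from the start of Mir17hg in bases. Circles are replicate 1, squares replicate 2, and the grey line joins the means. Mir17 is highest, at 24784 and 27113 CPM, and Mir19b-1 lowest, at 9.62 and 5.04 CPM.

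The miR-17 seed group held most of the assigned counts. Mir17 had 85000 counts in replicate 1 and 155965 in replicate 2, which were 24784 and 27113 CPM. The libraries were close, with a mean of 25948 ± 1647 CPM (SD, n = 2), and Mir17 ranked 10th and 8th of 1973 genes. Mir20a had 29929 and 50619 counts, or 8726 and 8800 CPM, and ranked 24th and 23rd. Its mean was 8763 ± 51.7 CPM. Together these genes made up 86.1% and 87.8% of the polycistron's assigned counts, a mean of 86.9 ± 1.16%. Shares within the polycistron leave out reads of miR-92a-3p and miR-19b-3p that were set aside, so they are uncertain as shares of mature miRNA. Mir17 alone held 63.7% and 66.2%, and Mir20a 22.4% and 21.5%.

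Mir18, whose mature product is miR-18a, was the next highest member. It had 13674 counts in replicate 1 and 22015 in replicate 2, at 3987 and 3827 CPM (mean 3907 ± 113 CPM, ranks 45 and 46). This was 10.2% and 9.35% of the polycistron's counts (9.80 ± 0.632%).

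Mir92-1, the source of miR-92a together with Mir92-2, had 4670 counts in replicate 1 and 6494 in replicate 2. Its levels were 1362 and 1129 CPM, a mean of 1245 ± 165 CPM, with ranks of 78 and 86. It held 3.50% and 2.76% of the polycistron's assigned counts (3.13 ± 0.524%). Reads of miR-92a-3p that map to both its hairpins are not in this share, which can therefore be too low.

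The miR-19 seed group had few counts. Mir19a had 154 counts in replicate 1 and 297 in replicate 2, or 44.9 and 51.6 CPM (mean 48.3 ± 4.76 CPM). Mir19b-1 had 33 and 29 counts, or 9.62 and 5.04 CPM (mean 7.33 ± 3.24 CPM). Both genes together made up 0.140% (95% exact interval 0.121 to 0.162) and 0.138% (0.124 to 0.154) of the polycistron's counts. Mir19b-1 shares its main arm with Mir19b-2, and the main arm of Mir19a occurs in no other annotated hairpin. The level of Mir19a is uncertain as well, because the tables do not show how its reads were trimmed and aligned, and the part of alignment and library preparation in its low count was not tested.

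The order of the 6 levels was the same in both libraries, and each member stood apart from its neighbour in that order by more than the spread between replicates. Mir17 exceeded Mir20a 2.84-fold in replicate 1 and 3.08-fold in replicate 2. Mir20a exceeded Mir18 by 2.19 and 2.30 times, the smallest step (log2 1.17 ± 0.05 with 1 CPM added). Mir18 exceeded Mir92-1 by 2.93 and 3.39 times, and Mir92-1 exceeded Mir19a by 30.3 and 21.9 times. Mir19a exceeded Mir19b-1 by 4.67 times (95% counting interval 3.19 to 7.02) and 10.2 times (6.98 to 15.6), a step whose size differed between the libraries. From the highest to the lowest member the ratio was 2576 in replicate 1 and 5378 in replicate 2. All these steps are between assigned counts. Agreement of the replicates does not cover reads of Mir92-1 and Mir19b-1 that were set aside for mapping to more than 1 place. With 2 libraries an exact sign-flip test cannot go below a two-sided p of 0.5, so no test of these steps is given.

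A read of a small RNA library covers a whole mature miRNA, here 21 to 23 bases, so counts were not divided by length. Divided by the length of the annotated gene, the order stayed the same, at 309 CPM per base for Mir17, 81.9 for Mir20a, 40.7 for Mir18, 15.6 for Mir92-1, 0.589 for Mir19a and 0.0843 for Mir19b-1.

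By level alone, the gene outside the related clusters nearest to each member over the 2 libraries, as distance of log2(CPM + 1), was Mir99b for Mir17 (distance 0.09), Mir127 for Mir20a (0.05), Mir872 for Mir18 (0.0020), Mir467e for Mir92-1 (0.07), Mir6236 for Mir19a (0.10) and Mir7666 for Mir19b-1 (0.31). With 2 samples of the same tissue this is closeness in level and not a shared pattern. Mir467e belongs to a multigene family, so its own level is uncertain.

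Mammals have 2 related clusters that share seeds with the polycistron. The mouse cluster of Mir106b, Mir93 and Mir25 lies on the minus strand of chromosome 5, between 138165321 and 138165818 and inside the cell cycle gene Mcm7. That of Mir106a, Mir18b, Mir20b, Mir19b-2, Mir92-2 and Mir363 lies on the minus strand of the X chromosome, between 52741693 and 52742567. The chromosome 5 cluster has 3 genes, with the miR-17 and miR-92 seeds only. The X-linked cluster has 6 genes, as the polycistron does, and also carries the miR-18 and miR-19 seeds. The polycistron was counted more than either. Its sum of 38913 CPM in replicate 1 and 40925 CPM in replicate 2 stood against 20485 and 20785 CPM for the chromosome 5 cluster, a ratio of 1.90 and 1.97. The X-linked cluster summed to 1133 and 1270 CPM, so that the polycistron exceeded it 34.4-fold and 32.2-fold. Both ratios were larger than their replicate spread, at log2 0.95 ± 0.04 and 5.06 ± 0.06 (SD, n = 2). They are ratios of assigned counts. Reads of miR-92a-3p and miR-19b-3p that map to both the polycistron and the X-linked cluster are in neither sum.

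**Figure D2:**
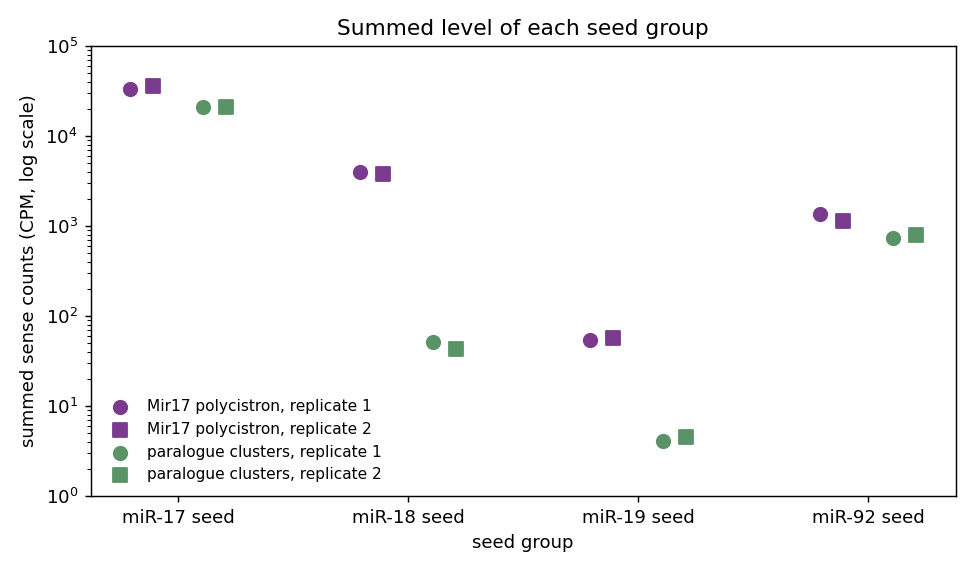
Summed sense counts (CPM, log scale) of the members (purple) and of the genes with the same seed in the related clusters (green), for each seed group. Circles are replicate 1 and squares replicate 2, and the miR-18 group shows the widest gap, at 77.3-fold and 89.1-fold. Sums of the miR-19 and miR-92 groups are uncertain, because reads that map to more than 1 hairpin are not counted.

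The excess over the related clusters differed widely between seed groups. For the miR-17 seed, Mir17 and Mir20a together had 33510 and 35912 CPM, and exceeded Mir106b, Mir93, Mir106a and Mir20b together by 1.61 and 1.69 times. Mir93 had 11821 and 13240 CPM and Mir106b 8292 and 7179 CPM. Mir17 lay above both, but Mir20a was below Mir93, at 0.738 and 0.665 of its level. Mir20a was only slightly above Mir106b, by 1.05 and 1.23 times, and the difference of 1.14-fold on average (log2 0.18 ± 0.16) was barely larger than its replicate spread. The X-linked Mir106a had 423 and 482 CPM and Mir20b 287 and 317 CPM. The main arm of Mir106a differs from that of Mir17 by U10A alone, and that of Mir20b from that of Mir20a at 2 of 23 positions. Whether mismatched reads moved between these genes was not tested. Counting every annotated mouse miRNA with this seed, 7 genes in the tables, the polycistron supplied 61.7% and 62.9% of their assigned counts, partner arms included. The remaining gene of that group, Mir6383, had no count.

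For the miR-18 seed the only other annotated gene, Mir18b, had 51.6 and 42.9 CPM, and Mir18 exceeded it 77.3-fold (95% counting interval 66.6 to 90.1) and 89.1-fold (78.6 to 101). The polycistron thus held 98.7% and 98.9% of the assigned counts of the genes of this seed group, partner arms included. The main arms of Mir18 and Mir18b differ at 2 of 23 positions. For the miR-19 seed, Mir19b-2 had 14 and 26 counts, or 4.08 and 4.52 CPM. Mir19a and Mir19b-1 together exceeded it 13.4-fold (7.76 to 24.9) and 12.5-fold (8.40 to 19.5). Mir19b-1 on its own was 2.36 times Mir19b-2 in replicate 1 (1.23 to 4.77) and 1.12 times in replicate 2 (0.634 to 1.97). The log2 difference of 0.60 ± 0.66 was within the replicate spread. Reads of miR-19b-3p that map to both its hairpins were given to neither, so the ratios of this seed group are uncertain.

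For the miR-92 seed the polycistron held a smaller part of the assigned reads. Mir92-1 exceeded Mir25, Mir92-2 and Mir363 together by 1.84 and 1.43 times, with Mir25 at 372 and 366 CPM and Mir363 at 305 and 371 CPM. Mir92b, a gene of the same seed on chromosome 3 outside all 3 clusters, had 4076 and 4045 CPM, more than Mir92-1 in both libraries. Over the 7 genes with this seed, Mir92-1 held 21.5% and 18.5% of the assigned reads. Reads of miR-92a-3p that map to both its hairpins were given to neither. The main arms of Mir25 and Mir363 occur in no other annotated hairpin. Comparisons of Mir92-1 with the other genes of this seed are therefore uncertain. Although their main arms are identical, Mir92-1 had far more assigned reads than Mir92-2, which had 61.8 and 53.0 CPM, by 22.0 times (19.2 to 25.4) and 21.3 times (19.0 to 24.0). The tables do not show which reads of these hairpins were assigned.

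The polycistron and the X-linked cluster hold counterparts in the same order, apart from Mir19a and Mir363, which were found in a single cluster each. Mir363 held 26.9% and 29.2% of the X-linked cluster, which lowers the shares of all its other members. Mir19a held only 0.115% and 0.126% of the polycistron. Mir20a held 22.4% and 21.5% of its cluster and Mir20b 25.4% and 25.0% of its own, and Mir92-1 held 3.50% and 2.76% against 5.46% and 4.18% for Mir92-2. Mir17, with 63.7% and 66.2%, took a larger share of its cluster than Mir106a with 37.3% and 37.9%. Mir18 held 10.2% and 9.35%, against 4.56% and 3.38% for Mir18b. Mir19b-1 held the smallest share of its cluster (0.0247% and 0.0123%), as did Mir19b-2 of its own (0.360% and 0.356%). In both clusters the counterpart of Mir17 was the highest and that of Mir19b the lowest member. The Mir19b counterparts have the same main arm, and so do Mir92-1 and Mir92-2. Reads that map to both genes of such a pair were given to neither, so these shares are uncertain and can be low in both clusters alike.

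**Figure D3:**
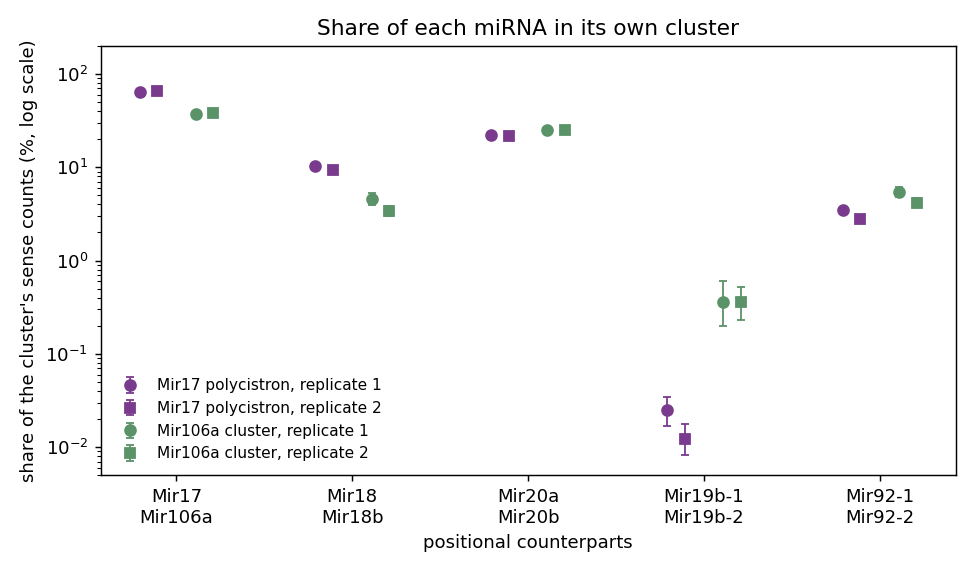
Share of each miRNA in the sense counts of its own cluster (%, log scale), for the polycistron (purple) and for its positional counterparts in the X-linked Mir106a cluster (green). Circles are replicate 1, squares replicate 2, and bars are exact 95% intervals of the share. Mir17 with 63.7% and 66.2% and Mir106a with 37.3% and 37.9% lead their clusters. Mir363, with 26.9% and 29.2% of the X-linked cluster, has no counterpart and is not shown. Shares of the Mir19b and Mir92 pairs are uncertain, because the genes of each pair have the same main arm.

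Between the pools the abundant members differed little. After TMM scaling, the log2 ratio of replicate 1 over replicate 2 with 1 CPM added was -0.10 for Mir17, 0.02 for Mir20a, 0.09 for Mir18, 0.30 for Mir92-1, -0.16 for Mir19a and 0.84 for Mir19b-1. Of the 6 members, 4 differed beyond counting error in a two-sided exact binomial test with Benjamini-Hochberg adjustment over 717 genes, against 19.8% of all genes tested. Mir18, Mir92-1 and Mir19b-1 were called with a positive ratio, higher in replicate 1, and Mir17 with a negative ratio, higher in replicate 2. Such calls grow with depth, and among genes that averaged 100 CPM or more 57.1% were called, including 3 of the 4 members at that level. The median absolute log2 ratio was 0.09 over those 4 members and 0.12 over all 203 genes at that level.

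Mir92-1 showed the widest gap of the well counted members, 1.23-fold higher in replicate 1 (log2 0.30, 95% counting interval 0.25 to 0.36, adjusted exact binomial p = 2.26e-26). For Mir17 the log2 ratio was -0.10 (-0.11 to -0.08, adjusted exact binomial p = 8.57e-54), and for Mir18 0.09 (0.06 to 0.12, adjusted exact binomial p = 4.40e-08). Mir19b-1 rests on 33 and 29 counts, and its interval reached from 0.20 to 1.74 (adjusted exact binomial p = 0.0438). The adjusted p was 0.167 for Mir20a and 0.597 for Mir19a in the exact binomial test. The test compares these libraries and has no replicate check. When biological variation of 10% was added to counting error, edgeR's exact test called 3 of the 717 genes and 0 of the members. At an unadjusted p under 0.05 it gave 31 genes, with Mir19b-1 as the 1 member.

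**Figure D4:**
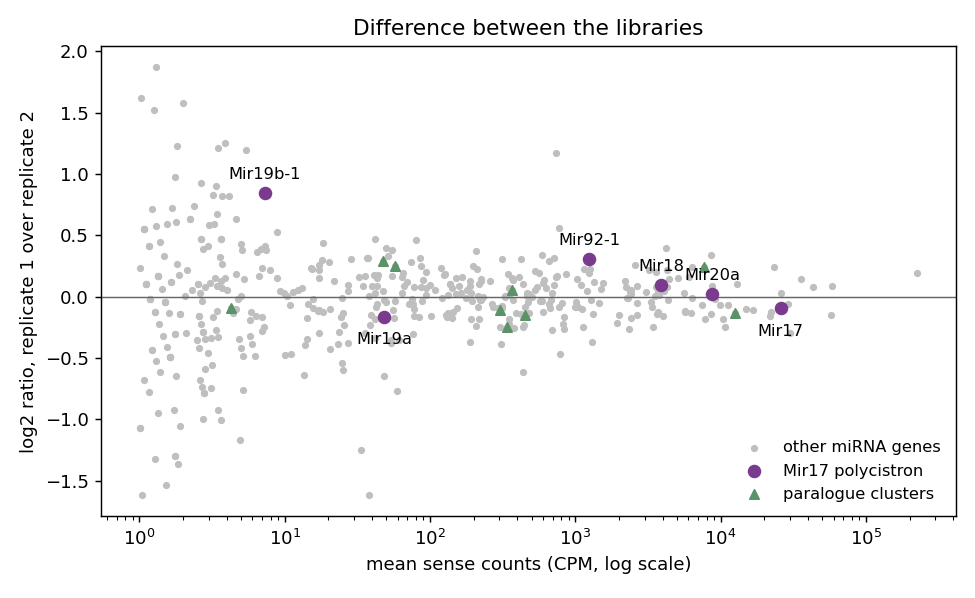
Log2 ratio of replicate 1 over replicate 2 against mean level (CPM, log scale) for genes that averaged 1 CPM or more. Purple points are the members, green triangles the related clusters and grey points all other genes. Mir17, Mir20a and Mir18 lie within 0.10 of equal levels, Mir92-1 at 0.30 and the thinly counted Mir19b-1 at 0.84.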

How the data were processed

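The authors deposited raw read counts per miRNA gene for each library, in columns for either strand, the sense strand and the opposite strand, without normalization. The alignment was to mm10 with GENCODE annotation M4, per the readme text deposited with each table. Not given in the sources used here are the aligner, the counter and the kit. Rows that name no gene were left out of library sizes and tests. In replicates 1 and 2 they held 13.4% and 16.9% unmapped reads, 37.7% and 35.8% with several mapping places, 3.57% and 3.43% without a gene on the sense strand and 0% ambiguous reads. Of the reads without a gene on the sense strand, 78158 and 138760 lay opposite to miRNA genes.

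Identifiers were matched to GENCODE M21 on the same assembly (1894 of 1973), and the sequences are RefSeq's for GRCm38.p6. All 6 members and all 9 genes of the related clusters matched both. Sense counts were used as CPM, with means and SDs over the 2 libraries. The libraries were compared after TMM scaling (edgeR 4.0.16, R 4.3.3) by a conditional exact binomial test (SciPy 1.17.1), adjusted over the 717 genes with a count at a threshold of 0.05 and checked on simulated counts. The simulated counts held counting error only, as the test assumes, so the check says nothing about variation between pools. Reads are not independent molecules. Genes named are the members, the related clusters, all genes with a member's seed and the nearest gene in level. The genes with a member's seed were added after the values were seen. The members and lists were chosen with earlier results of these data known. Alternatives were the either-strand counts, other totals, division by gene length, pseudocounts of 0.1 and 10 CPM, DESeq2 1.42.0 size factors, total and upper-quartile scaling, other filters, a fixed coefficient of variation of 10% and leaving out each replicate.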

Additional observations from a re-analysis of the deposited data

How the results depend on the processing

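The order of the 6 members was the same after division by gene length and in each replicate alone. The polycistron's share of 3.99% became 1.78% over all reads listed and 5.14% without Mir99a in the total. Per base of gene, the share of the miR-18 seed group was 9.10% and of the miR-19 group 0.150%. On the log2 scale, division by gene length gave Mir17 over Mir18 as 2.92, Mir17 over Mir20a as 1.91, the polycistron over the chromosome 5 cluster as 0.89 and over the X-linked cluster as 4.76, and members over related genes as 0.66 for the miR-17 seed and 6.14 for the miR-18 seed. With 10 CPM added, Mir17 over Mir19a was 8.80, Mir17 over Mir19b-1 10.56, and members over related genes 6.10 for the miR-18 seed and 2.20 for the miR-19 seed, which was 3.66 with 0.1 CPM added. A pseudocount shrinks ratios of low counts by construction. Of 2 libraries, each alone lies within 1 SD of the mean by construction, and members without opposite-strand counts cannot change among themselves with either strand, so these settings say little about stability.

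Of the 4 members called between the libraries, 0 were with a coefficient of variation of 10%, where adjusted p ran from 0.830 to 1. Mir19b-1 also lost its call with either strand (adjusted exact binomial p = 0.0578), total counts (0.0599), upper-quartile scaling (0.0577) and all genes of the table (0.121). Mir20a gained a call with DESeq2 size factors (log2 0.03, adjusted exact binomial p = 0.0459), and its ratio turned to -0.012 with total counts. No paired analysis was possible because the libraries form a single group. Depth limits Mir19b-1 and Mir19b-2, with at most 33 counts each per library.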

Other observations

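The genes with the miR-17 seed fell to either side of equal levels between the pools. Mir17 (-0.10), Mir93 (-0.13), Mir106a (-0.15) and Mir20b (-0.11) had negative log2 ratios of replicate 1 over replicate 2, and Mir20a (0.02) and Mir106b (0.24) positive ones. Of these, Mir17, Mir93, Mir106a and Mir106b were called by the exact binomial test, which covers counting error only. All the genes listed averaged 100 CPM or more, and 57.1% of all genes at that level were called. With biological variation added to counting error, edgeR's exact test called 3 of the 717 genes.

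Assigned counts of both genes that give miR-92a were toward replicate 1, Mir92-1 at 0.30 and Mir92-2 at 0.25 (called only for Mir92-1). Reads of miR-92a-3p that map to both hairpins were given to neither gene, so the ratio of miR-92a itself is uncertain. Mir363 of the same seed was at -0.25 and called toward replicate 2. Both miR-18 genes were also toward replicate 1, Mir18 at 0.09 and Mir18b at 0.29 (called only for Mir18). These calls also cover counting error only, and the cause was not tested.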
